A study of Mus musculus with 4 samples.

Results

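The Zfp series of mouse gene symbols names zinc finger proteins by number, and 194 of the 339 such symbols in the deposited tables were measured at 2 FPKM (fragments scaled to transcript length and library size) or more in at least 1 of 4 libraries. They are described here out of 23284 gene rows, of which 9987 passed the same minimum. Members were chosen by symbol (Zfp and a number only) and selected on their FPKM in these same libraries, so level is a description here and no finding. Zfp36, an mRNA-decay factor with a different type of finger, was left out by the same rule. The libraries came from macrophages grown from mouse bone marrow, and all cultures had been exposed to hemin for 18 h. The series design gives the hemin dose as 40 µM, while the description of each sample has mM after the same number. The groups were control cells (Spic+/+) without LPS, control cells with LPS, Spic-/- cells without LPS and Spic-/- cells with LPS, and LPS (bacterial lipopolysaccharide, an agonist of Toll-like receptor signalling) was given at 100 ng/ml for 4 h. Each group had 1 library. Titles mark the knockout as "cKO", and neither a floxed allele nor a Cre driver is named. With no replicate in any group, no test, standard error or p-value could be given, and each difference is between single libraries. Spic is an Ets-family transcription factor that haem induces in macrophages, and the comparisons ask how LPS and the loss of Spic bear on the RNA of hemin-treated macrophages.

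Most Zfp-series proteins are C2H2 zinc finger proteins, in which cysteine and histidine pairs hold a zinc ion and tandem fingers read DNA bases. Many carry an N-terminal KRAB domain, which binds the corepressor Trim28 (KAP1) and through it the histone methyltransferase Setdb1, and this machinery is best known for silencing endogenous retroviruses and other transposable elements. KRAB zinc finger genes lie in clusters that arose by repeated duplication. A smaller number of Zfp symbols name factors that act on RNA, ribosomes, ubiquitin or the spindle, and these do not act mainly by binding DNA.

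The estimated number of fragments for 1 FPKM and 1 kb of effective transcript length was 15.6 in the unstimulated control, 10.6 in the LPS-treated control, 12.9 in the unstimulated knockout and 8.03 in the LPS-treated knockout, so the libraries with LPS were the shallower of each pair. Spic itself was at 53.1 FPKM in the unstimulated control, 406 in the LPS-treated control, 14.98 in the unstimulated knockout and 80.8 in the LPS-treated knockout, so it was lower in both libraries labelled knockout but not at 0. All 12 measured macrophage markers were at the 2 FPKM minimum (summed level 8756 to 12731 FPKM). Stromal and endothelial markers summed to 771 FPKM in the unstimulated control, 795 in the LPS-treated control, 395 in the unstimulated knockout and 444 in the LPS-treated knockout, with 11 of 16 at the minimum and Thy1, Pecam1 and Cdh5 under 0.5. Of 12 lymphocyte and neutrophil markers, S100a8 and S100a9 were at the minimum. The part that other cell types play in the values below was not tested.

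The Zfp series was a low-level group. The median over members of the mean FPKM was 4.34, against 12.9 over all genes at the minimum. Of the 194 members, 107 (55.2%) had a mean under 5 FPKM, 58 had 5 to 10 and 29 had 10 or more, whereas 23.7% of all genes had a mean under 5. All members together held 0.239% of the summed FPKM in the unstimulated control, 0.183% in the LPS-treated control, 0.237% in the unstimulated knockout and 0.173% in the LPS-treated knockout. The minimum was met in all 4 libraries by 138 members, in 2 or 3 by 46 and in 1 library by 10. It was met only in libraries with LPS by 9 members and only in libraries without LPS by 25. The direction of such members was fixed by the choice, and it carries no weight. The other 145 matching symbols stayed under the minimum, 21 of them at 0 in every library. The members just inside it were Zfp873 with a highest value of 2.02 FPKM, Zfp105 with 2.05 and Zfp949 with 2.06, and just outside were Zfp763 with 1.99, Zfp956 with 1.97 and Zfp963 with 1.93. The median member had an estimated 191 fragments in the unstimulated control, 115 in the LPS-treated control, 160 in the unstimulated knockout and 91.7 in the LPS-treated knockout.

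Zfp263, a SCAN-domain zinc finger protein, was the member with the highest mean, at 30.6 FPKM in the unstimulated control, 104 in the LPS-treated control, 42.1 in the unstimulated knockout and 122 in the LPS-treated knockout. Zfp207, a kinetochore protein also known as BuGZ, had 38.4, 58.9, 43.0 and 70.9 FPKM in the same order, which is kept for all lists of 4 values below. Both were higher in each library with LPS than in either library without it. Next came Zfp330, a nucleolar protein, with 23.7, 33.5, 25.2 and 30.7 FPKM. Zfp91, known as an E3 ubiquitin ligase of the NF-kB-inducing kinase, had 26.5, 25.7, 29.9 and 29.0 FPKM and differed little between libraries. Zfp710 had 32.4, 16.1, 36.3 and 19.4 FPKM, lower in both libraries with LPS. Zfp384, also known as CIZ or NMP4, had 18.7, 25.6, 19.6 and 28.3 FPKM.

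Few members differed far with LPS. On the scale log2(FPKM + 1), on which low genes move less than on plain FPKM, in control cells LPS left 8 of 194 members 2-fold or more above and 6 as far below their unstimulated level, where 10.7% of all genes at the minimum were that much higher and 7.13% that much lower. In knockout, 10 were at least 2-fold higher and 9 lower, against 12% and 8.53% of all genes. At 1.5-fold, 25 were higher and 25 lower in control (all genes 20.5% and 17.4%), and 30 higher and 32 lower in knockout (all genes 22.3% and 19.4%). The median log2 ratio of members was -0.06 in control and -0.11 in knockout, and that of all genes was 0.04 in each. Rescaling the libraries to their upper quartile lowered the median of all genes by 0.15 in control and 0.17 in knockout, which turned it to -0.12 in each, and the members' medians became -0.21 and -0.27. It left 7 higher and 10 lower at 2-fold in control (41.2% of calls higher in place of 57.1%), 8 and 14 in knockout (36.4% in place of 52.6%), and, at 1.5-fold, 16 and 44 in control (26.7% in place of 50%) and 21 and 50 in knockout (29.6% in place of 48.4%). All genes turned the same way. At 2-fold, 9.09% of them were then higher and 9.67% lower in control, and 9.73% and 11.2% in knockout. At 1.5-fold, the shares were 15.7% and 23.6% in control, and 16.9% and 25.7% in knockout. The counts moved with the pseudocount. With 0.1 FPKM in place of 1, 17 were 2-fold lower in control, and 17 were higher and 20 lower in knockout. With 5 FPKM, 3 were higher in control, 4 were higher in knockout and 0 were lower in either. The shares of all genes above are for a pseudocount of 1 and cannot be set beside these counts. In these bulk libraries, fewer cells of a type and less RNA per cell cannot be told apart.

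**Figure D1:**
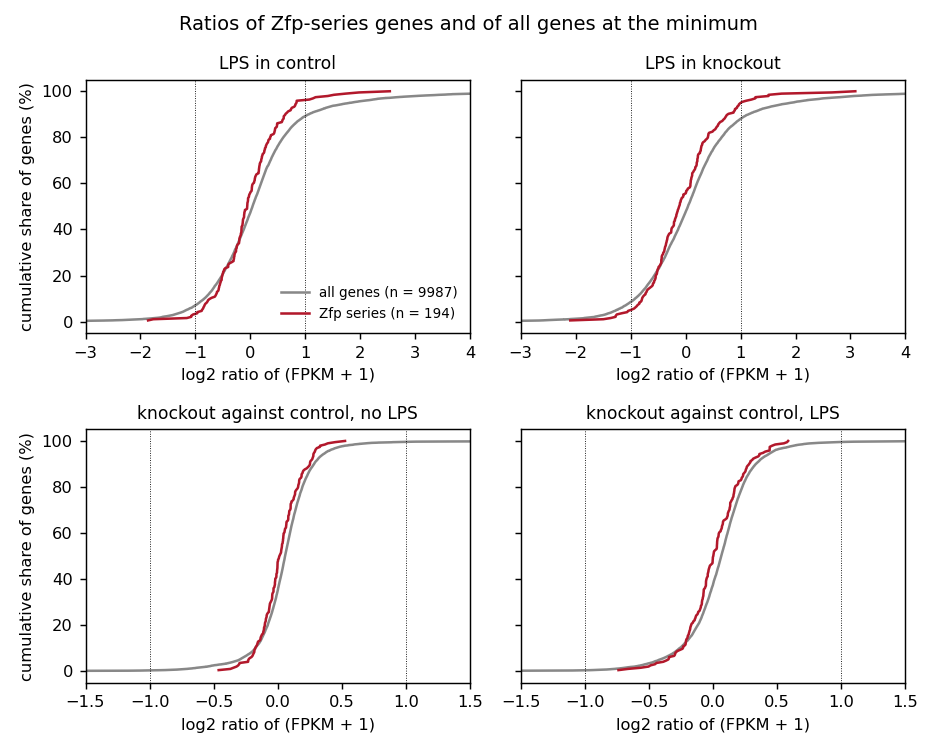
Cumulative share of genes (y axis, percent) by log2 ratio of (FPKM + 1) (x axis) for LPS in each genotype and for genotype in each LPS state, in red for the 194 Zfp-series genes and in grey for all 9987 genes at the minimum; dotted lines mark 2-fold. The red curves are steeper in the LPS panels, where 8 members were 2-fold higher and 6 lower in control, and no member passes 2-fold in the genotype panels.

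Since members were low in level, they were also set beside all genes of like level, a comparison chosen after seeing the data. Among the 107 members with a mean under 5 FPKM, 3 were at least 2-fold higher in control (5.19% of all genes in that band) and 4 lower (13%), and in knockout 5 were higher (6.58%) and 6 lower (15.9%). Of the 58 members at 5 to 10 FPKM, 1 was higher and 1 lower in control (6.37% and 8.48% of all genes), and in knockout 1 was higher (7.02%) and 3 were lower (10.6%). Among the 29 at 10 FPKM or more, 4 were higher and 1 lower in control (14.4% and 4.3% of all genes), and in knockout 4 were higher (15.8%) and 0 lower (4.84%). At 1.5-fold in control, 11 of those 29 were higher and 3 lower (26.3% and 10.7% of all genes in that band). In knockout, 12 were that much higher and 3 lower (28.6% and 12% of all genes). Within each band the members' median log2 ratio lay above that of all genes, whereas over all levels it lay below. Under 5 FPKM it was -0.16 in control and -0.26 in knockout (all genes -0.30 and -0.32). At 5 to 10 FPKM it was -0.01 and -0.07 (all genes -0.10 and -0.11), and at 10 FPKM or more it was 0.43 and 0.28 (all genes 0.19 and 0.20).

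Zfp800, a C2H2 protein with 6 fingers (chr6:28239927-28398005, mm10, minus strand), had the largest LPS ratio by the mean of both genotypes. It was at 4.18, 29.1, 3.54 and 37.6 FPKM. Both libraries with LPS were far above both without. The plain FPKM ratio was 6.95 in control, with an exact 95% counting interval of 6.04 to 8.03, and 10.6 (9.03 to 12.6) in knockout. These intervals come from estimated fragment numbers and cover counting error only, not the spread between cultures.

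Zfp811, a KRAB protein with 13 fingers (chr17:32795676-32809931, minus strand), went from near 0 to a low level, at 0.161, 3.57, 0.078 and 5.82 FPKM. The libraries without LPS rest on about 3.61 and 1.45 estimated fragments, so its plain ratios of 22.1 in control (7.34 to 75.7) and 74.6 in knockout (18.6 to 4308) are hardly bounded from above. Zfp558, another KRAB protein (chr9:18455575-18478268), had 0.546, 3.43, 0.447 and 3.86 FPKM, with ratios of 6.28 (3.3 to 12.2) in control and 8.63 (3.97 to 19.1) in knockout. Both met the minimum only through libraries with LPS, so their direction was fixed by the choice of members.

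Zfp263 (chr16:3744093-3750790, plus strand), Zfp800, Zfp281 and Zfp131 were the 4 members with a mean of 10 FPKM or more among those at least 2-fold higher. Zfp263 had plain ratios of 3.40 (3.18 to 3.63) in control and 2.89 (2.71 to 3.08) in knockout. Zfp281, a regulator of pluripotency genes that binds G-rich DNA (chr1:136624901-136630053, plus strand), had 9.46, 26.8, 9.15 and 27.9 FPKM, with ratios of 2.83 (2.58 to 3.11) and 3.05 (2.75 to 3.39). Zfp131, a BTB-domain zinc finger protein, had 7.47, 16.8, 7.09 and 18.5 FPKM. Zfp382, a KRAB protein, had 1.35, 4.18, 1.67 and 5.43 FPKM, and also met the minimum only with LPS. Together with Zfp800, Zfp811 and Zfp558, these were the 7 members at least 2-fold higher in both genotypes (9.81% of all genes). Zfp948, a KRAB protein, passed 2-fold in control only on this scale, at 2.999, 8.09, 3.62 and 7.83 FPKM. Zfp319, Zfp719 and Zfp821 passed it in knockout only, and the log2 ratios of Zfp319 were 0.75 in control and 1.20 in knockout, those of Zfp719 0.81 and 1.10, and those of Zfp821 0.57 and 1.03.

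Zfp395, known in human cells as a hypoxia-inducible factor (chr14:65358389-65398930, plus strand), had the lowest LPS ratios. It was at 4.85, 0.610, 4.07 and 0.185 FPKM, and the plain ratio was 0.126 (0.0813 to 0.189) in control and 0.0454 (0.0166 to 0.101) in knockout. Both libraries with LPS were below both without. Zfp362, a paralog of Zfp384 (chr4:128773088-128806045, minus strand), had 6.84, 1.30, 6.27 and 1.58 FPKM, with ratios of 0.191 (0.131 to 0.273) and 0.251 (0.168 to 0.367). Its relative Zfp384 had log2 ratios of 0.43 and 0.51, so the pair lay on opposite sides of 0 in these libraries. Zfp608, a paralog of Zfp609 (chr18:54888048-54992555, minus strand), had 2.46, 0.639, 2.02 and 0.252 FPKM, with ratios of 0.260 (0.182 to 0.368) and 0.125 (0.0636 to 0.226). Zfp825, a KRAB protein, had 8.71, 3.61, 10.7 and 4.64 FPKM. These 4 were at least 2-fold lower in both genotypes (5.88% of all genes). Zfp395, Zfp362 and Zfp608 met the minimum only without LPS, so their direction, too, was fixed by the choice of members.

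Zfp161 and Zfp414 were at least 2-fold lower in control only. Zfp161, which the annotation names Zbtb14, had 4.82, 1.83, 4.46 and 2.14 FPKM. Zfp932, Zfp688, Zfp41, Zfp692 and Zfp580, were that much lower in knockout only. Zfp41 and Zfp580 met the minimum in the unstimulated knockout alone, so their lower value with LPS in knockout was fixed by the choice of members. Zfp932, a KRAB protein known to act on endogenous retroviruses, had 8.36, 4.09, 8.57 and 2.72 FPKM, and Zfp688, also KRAB, had 6.81, 3.38, 8.80 and 3.37. Their log2 ratios in control were -0.88 and -0.83. Zfp710 was just short of 2-fold on this scale, with log2 ratios of -0.97 and -0.87.

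**Figure D2:**
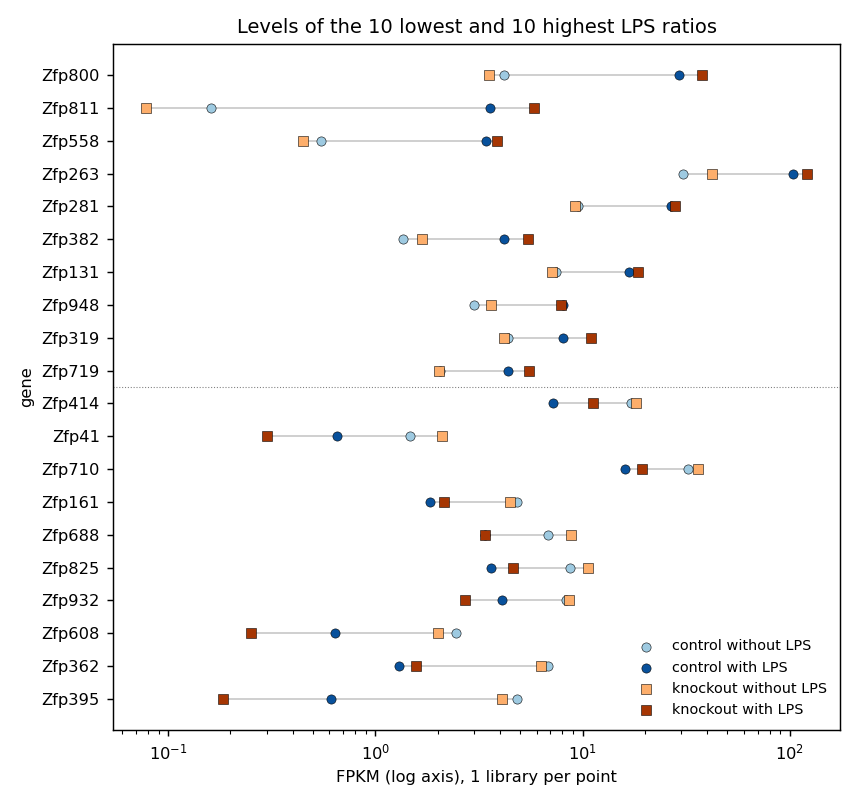
FPKM (x axis, log scale) of the 10 Zfp-series genes with the lowest and the 10 with the highest mean LPS log2 ratio, 1 point per library (circles control, squares knockout, dark with LPS, light without). Zfp395 lies at 4.85 and 4.07 FPKM without LPS and at 0.610 and 0.185 with it, and Zfp800 at 4.18 and 3.54 without LPS and at 29.1 and 37.6 with it.

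The LPS ratios of members were much alike in both genotypes. Both were above 0 for 77 members, both below 0 for 98, and of opposite sign for 19, none of which was 1.5-fold in each direction. At 1.5-fold, 23 members were higher in both genotypes and 18 lower in both, where 18.9% and 14.8% of all genes were. Described across the 194 members, with no test, Pearson's r came to 0.927 and the rank correlation (Spearman's rho) to 0.901. The ratios of the genotypes come from different libraries, but genes are not independent replicates and share depth and processing. Over all 9987 genes at the minimum r was 0.896, below the members' value, and over the 9835 left without small RNA and unnamed rows it was 0.969, above it.

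**Figure D3:**
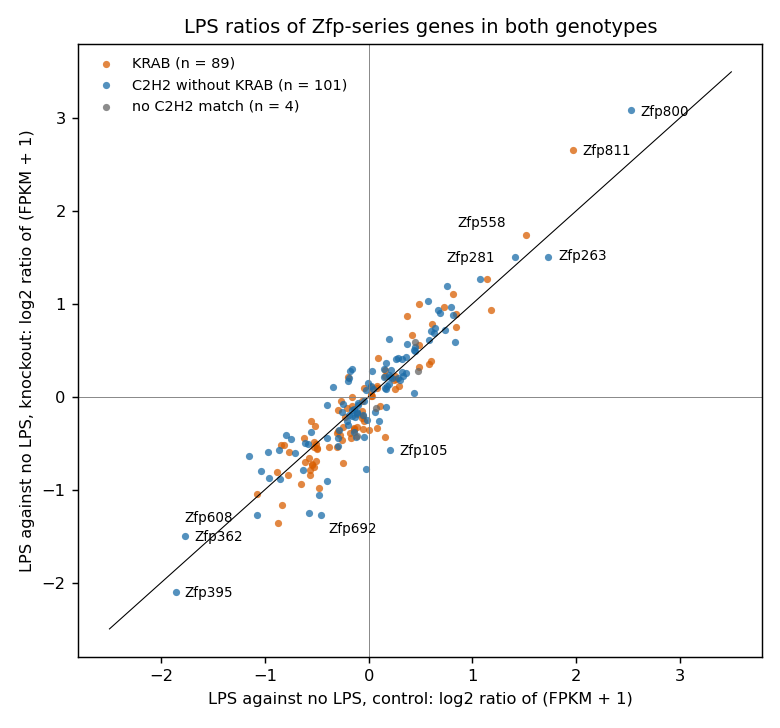
Log2 ratio of (FPKM + 1) with LPS against without it in control (x axis) and in knockout (y axis), 1 point per Zfp-series gene, in orange for 89 KRAB proteins, blue for 101 other C2H2 proteins and grey for 4 with no C2H2 match; the diagonal marks equal ratios. Zfp800, Zfp811, Zfp263, Zfp558 and Zfp281 lie at the upper right, Zfp395, Zfp362 and Zfp608 at the lower left, and Zfp692 and Zfp105 lie below the diagonal.

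Promoter sequence is shown for genes with large upward LPS ratios and for 3 higher genes that share a motif. RefSeq's promoter table (GRCm38.p6, from 250 bases before to 50 after each start) held 161 of the 194 members, with 211 promoters, and 27025 genes in all. Zfp395 and Zfp362, which had the lowest LPS ratios, had no entry, so no promoter was read for them. Of the motifs searched on both strands, the YY1 letters AAGATGGC stood in the promoters of 8 members, 4.97% of the 161, and in 3.19% of all genes. Of the 21 members with an entry whose LPS ratio reached 1.5-fold upward in both genotypes, 4 held it (Zfp811, Zfp207, Zfp617 and Zfp292), and of the 12 that were as much lower, 0 held it. The other carriers, Zfp451, Zfp68, Zfp27 and Zfp809, were in neither set. Zfp27 and Zfp809 had LPS ratios below 0 in both genotypes, and Zfp451 above 0 in both. Several motifs were searched, and the share among all genes higher with LPS was not computed, so no link of these letters to direction is drawn. Zfp811 met the minimum only with LPS, so its direction was fixed by the choice of members. YY1 is a zinc finger transcription factor, and a letter match is not a bound site. The 3 windows below, each from 100 bases before the start to 30 from it on, hold those letters close to the start, shown in capitals.
Zfp811 (chr17:32809902-32810031, minus strand): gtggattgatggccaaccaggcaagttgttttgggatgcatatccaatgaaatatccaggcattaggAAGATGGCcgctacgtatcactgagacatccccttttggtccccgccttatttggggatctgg
Zfp207 (chr11:80383179-80383308, plus strand): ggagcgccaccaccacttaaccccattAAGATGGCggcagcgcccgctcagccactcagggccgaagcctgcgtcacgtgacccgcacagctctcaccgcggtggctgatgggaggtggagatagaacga
Zfp617 (chr8:71922725-71922854, plus strand): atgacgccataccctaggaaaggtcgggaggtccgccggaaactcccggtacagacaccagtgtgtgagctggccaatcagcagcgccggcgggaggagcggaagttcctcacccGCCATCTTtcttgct
The letters began 33 bases before the annotated start in Zfp811, 73 before it in Zfp207 and 15 after it in Zfp617, where they lie on the opposite strand. They differed in distance and strand among the 3 genes. Zfp617, a KRAB protein, was at 12.5, 19.6, 9.92 and 17.8 FPKM, and Zfp292 at 3.88, 6.75, 3.99 and 8.58.

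Zfp800, Zfp263 and Zfp281, with large LPS ratios and many estimated fragments, are shown in the same window with the annotated first base in capitals, since none of the searched motifs stood there.
Zfp800, upstream start (chr6:28397976-28398105, minus strand): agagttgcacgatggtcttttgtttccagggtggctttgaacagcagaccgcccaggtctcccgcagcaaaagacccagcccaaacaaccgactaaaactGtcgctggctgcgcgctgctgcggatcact
Zfp263 (chr16:3743999-3744128, plus strand): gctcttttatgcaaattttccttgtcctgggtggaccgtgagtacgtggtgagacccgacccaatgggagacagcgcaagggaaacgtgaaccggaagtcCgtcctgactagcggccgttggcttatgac
Zfp281 (chr1:136624801-136624930, plus strand): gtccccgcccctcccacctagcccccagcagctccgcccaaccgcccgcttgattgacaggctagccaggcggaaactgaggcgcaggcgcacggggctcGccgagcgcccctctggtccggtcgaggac
The factors of inflammatory signalling were also searched by their letters over the full promoters. The interferon-stimulated response element (ISRE) stood in 1.86% of members with an entry and 3.99% of all genes, the Spi-C and PU.1 like letters GAGGAAGT in 2.48% and 3.69%, and the AP-1 letters TGACTCA in 3.73% and 5.95%. The CRE letters TGACGTCA stood in 4.35% of members and 2.03% of all genes. The NF-kB motif stood in 0.621% of members and 0.407% of all genes. Among the 21 higher members, Zfp871 held the AP-1 letters, and 0 held the ISRE, Spi-C and PU.1 like, NF-kB or CRE letters. No match says only that these letters are not in this window.

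By role, a list of nuclear regulators named for known functions had 30 of 43 genes among the members under the listed symbol, with median log2 LPS ratios of 0.06 in control and 0.10 in knockout. At 2-fold, 3 were higher (Zfp263, Zfp281 and Zfp131) and 3 lower (Zfp395, Zfp362 and Zfp608) in each genotype, shares near those of all genes (10.7% and 7.13% in control, 12% and 8.53% in knockout). The direction of the 3 lower ones was fixed by the choice of members. At 1.5-fold, 5 were higher and 9 lower in control (20.5% and 17.4% of all genes). In knockout, 7 were that much higher and 7 lower (22.3% and 19.4% of all genes). The lower ones include Zfp395, Zfp362, Zfp608, Zfp369 and Zfp3, which met the minimum only without LPS, so the choice of members shaped these counts. Zfp24 of this list is a member under its older symbol, Zfp191, and was left out of these medians and counts. Its log2 LPS ratios were -0.16 in control and -0.14 in knockout. Of the list of factors that act on RNA, ribosomes, ubiquitin or the spindle, 12 of 13 were members, with medians of 0.22 and 0.25. At 1.5-fold, 3 were higher in each genotype and 0 lower, and at 2-fold 0 passed in either direction. With 20.5% of all genes that much higher in control and 22.3% in knockout, 3 of 12 is near the background. The 3 were Zfp207, Zfp598 and Zfp326. Zfp598, the ubiquitin ligase that senses collided ribosomes, was at 11.8, 18.99, 13.5 and 23.2 FPKM, with plain ratios of 1.61 (1.43 to 1.8) and 1.72 (1.52 to 1.93). Zfp326, a component of the DBIRD complex that links splicing to transcription, was at 5.64, 9.27, 5.02 and 8.69. The list also held Zfp622, a factor of the large ribosomal subunit, at 11.8, 13.2, 11.2 and 13.2 FPKM. Zfp106, an RNA-binding protein, was at 18.8, 18.6, 18.9 and 21.0. Zfp622 and Zfp106 were picked as examples after their values were seen.

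By protein features, read from the longest coding model of the GENCODE vM21 annotation, 89 of the 194 members (45.9%) matched a KRAB A box, 101 had C2H2 fingers and no KRAB match, and 4 (Zfp259, Zfp330, Zfp703 and Zfp839) had no C2H2 match. KRAB members had a median of 12 fingers, and the other C2H2 members 7. KRAB members were the lower in level, with a median mean of 2.92 FPKM against 5.77. Of the matching symbols under the minimum with a coding model, 89 of 140 (63.6%) were KRAB. The median LPS log2 ratio of the KRAB members was -0.14 in control and -0.26 in knockout, and that of the other C2H2 members -0.02 and 0.08. Among members with a mean under 5 FPKM, the 66 KRAB members had medians of -0.16 and -0.28, and the 41 others -0.14 and -0.26. At 5 to 10 FPKM, the 18 KRAB members had medians of -0.11 and -0.33, and the 40 others 0.05 and 0.09. At 10 FPKM or more, the 5 KRAB members had 0.29 and 0.12, and the 24 others 0.44 and 0.39. The medians thus lay close together under 5 FPKM and farther apart at higher levels, where KRAB members were few. Under 5 FPKM, 0 of the 66 KRAB members were at least 2-fold lower in either genotype, and 3 in control and 4 in knockout were that much higher. Of the 41 others, 4 in control and 6 in knockout were 2-fold lower, and 0 and 1 higher. Of all genes in that band, 5.19% were 2-fold higher and 13% lower in control, and 6.58% and 15.9% in knockout. The lower ones include Zfp395, Zfp362, Zfp608, Zfp41 and Zfp580, which met the minimum only without LPS. The higher KRAB members include Zfp811, Zfp558 and Zfp382, which met it only with LPS. The choice of members thus shaped the counts of both classes. At 1.5-fold in this band, 7 of the 66 KRAB members were lower in control and 13 in knockout, and 8 of the 41 others in each. Of all genes in the band, 31.4% in control and 34.2% in knockout were that much lower. As far above were 7 KRAB members in each genotype, and 2 of the others in control and 3 in knockout. The shares of all genes were 11.2% and 11.4%.

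Of the corepressor machinery that KRAB domains recruit, 31 of 34 listed genes met the minimum. Trim28, the scaffold that binds KRAB domains, was at 29.2, 23.8, 32.8 and 30.4 FPKM. Setdb1, the methyltransferase it recruits, was at 11.98, 6.74, 11.4 and 6.80 FPKM, lower in both libraries with LPS. The median log2 ratio of the 31 was -0.02 in control and -0.09 in knockout. At 1.5-fold, 1 was higher and 6 lower in control (20.5% and 17.4% of all genes). In knockout, 4 were that much higher and 7 lower (22.3% and 19.4% of all genes). At 2-fold, 0 were higher in either genotype (all genes 10.7% in control and 12% in knockout). As far below were 2 in control (all genes 7.13%) and 4 in knockout (8.53%). Dnmt1, the maintenance DNA methyltransferase, was at 18.1, 3.91, 20.6 and 3.97 FPKM. Dnmt3a, Cbx3 and Uhrf1 were the others. Chd4, the remodeller of the NuRD complex, was at 31.6, 56.6, 31.3 and 62.7 FPKM. Other C2H2 families measured at the same minimum are given for scale. Of 29 genes listed under a Zbtb symbol, 0 passed 2-fold in either direction in control cells (2 higher and 3 lower at 1.5-fold) and 1 each in knockout. Zfp161, Zfp238 and Zfp295, which the annotation names Zbtb14, Zbtb18 and Zbtb21, were counted among the members instead. Of these, Zfp161 was at least 2-fold lower in control. Of 10 Klf genes, 4 were higher in each genotype, and 2 were lower in control and 1 in knockout.

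Along the genome, 109 members lay within 500 kb of another member, in 27 groups. The 16 groups of at least 3 held 87 members, 61 of them KRAB. Chromosome 7 carried 45 members, chromosome 17 carried 28 and chromosome 8 carried 17. In 12 of the 16 groups, some members were above 0 and some below 0 with LPS in both genotypes. On chr17:32765496-33631779, a group of 7, the mean log2 ratio ran from 2.32 for Zfp811 to -0.90 for Zfp414. Its neighbour Zfp871 was at 7.54, 14.3, 7.05 and 14.0 FPKM, and Zfp472 at 3.70, 2.17, 4.03 and 1.80. On chr17:21008903-23564238, 16 members ran from 1.06 for Zfp948 to -0.81. In 3 groups all members were lower with LPS in both genotypes, and in 1, chr7:43296197-43593235, all 3 were higher in both. Zfp715 was at 7.60, 11.1, 7.92 and 10.1 FPKM, Zfp658 at 0.93, 2.199, 0.75 and 2.42, and Zfp719 at 2.05, 4.36, 2.03 and 5.52. Zfp658 met the minimum only with LPS, so its direction was fixed by the choice of members. Each of the 3 groups with all members lower held a member that met the minimum only without LPS. These were Zfp41, Zfp28 and Zfp111, and their lower value with LPS in knockout was fixed in the same way. Where neighbours are near copies, the authors' counting could split reads between them. Similarity within the groups was not measured.

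**Figure D4:**
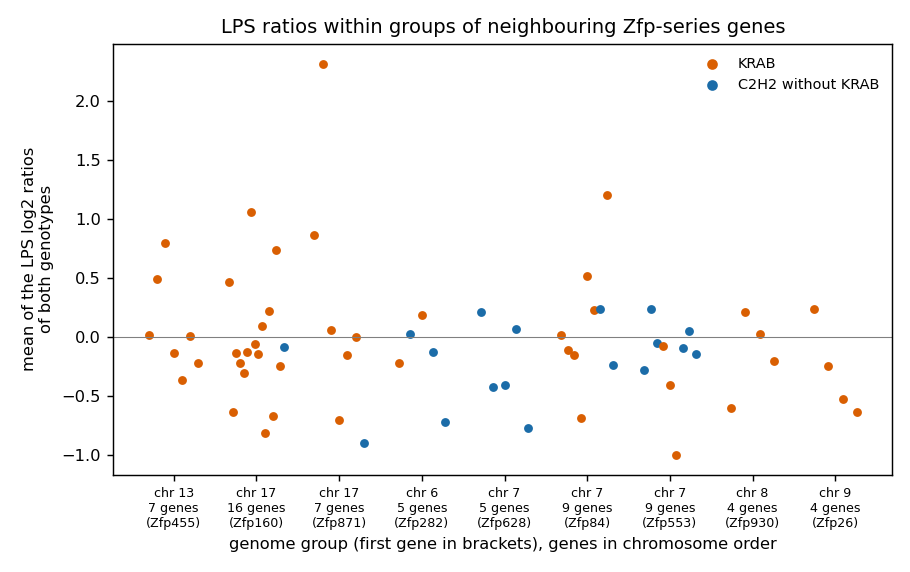
Mean of the LPS log2 ratios of both genotypes (y axis) for Zfp-series genes in the genome groups of at least 4 members (x axis, named by chromosome, size and first gene; genes in chromosome order), in orange for KRAB and blue for other C2H2 proteins. In most groups points lie on both sides of 0, and in the chromosome 17 group that begins with Zfp871 they run from 2.32 to -0.90.

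Knockout and control differed little among members. Without LPS, 0 of 194 members were at least 2-fold higher or lower in knockout (all genes 0.411% and 0.391%), and 0 passed 1.5-fold in either direction (all genes 1.66% and 1.79%). With a pseudocount of 0.1 FPKM in place of 1, 1 was higher and 1 lower at 1.5-fold. With LPS, 0 passed 2-fold (all genes 0.461% and 0.421%), and at 1.5-fold 1 was higher and 2 lower (all genes 2.63% and 2.3%). With the pseudocount of 0.1, 4 were 2-fold lower with LPS, and 5 were higher and 7 lower at 1.5-fold. The shares of all genes given here are for the pseudocount of 1 only. The median log2 ratio of members was 0.01 without LPS and 0.00 with it, and that of all genes 0.06 in each. With upper-quartile scaling the members' medians were -0.05 and -0.07, and those of all genes -0.01 and -0.02. As a description, the members' genotype ratios in the absence and presence of LPS had r = 0.146 and rho = 0.172. Over all 9987 genes r was 0.297, and over the 9835 without small RNA and unnamed rows 0.502.

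Zfp414 was the member higher in the LPS-treated knockout, at 17.2, 7.16, 18.0 and 11.2 FPKM. Its plain ratio of knockout to control was 1.05 (0.874 to 1.26) without LPS and 1.57 (1.13 to 2.15) with it. Under upper-quartile scaling it missed 1.5-fold. Zfp105, at 1.64, 2.05, 1.72 and 0.828 FPKM, and Zfp251, a KRAB protein at 3.71, 2.37, 3.21 and 1.13, were lower there, Zfp105 having met the minimum in the LPS-treated control alone, with ratios of 0.404 (0.193 to 0.788) and 0.475 (0.316 to 0.712). The low values rest on an estimated 11.9 and 34.6 fragments in the shallowest library. Zfp263 had a knockout to control ratio of 1.37 (1.27 to 1.48) without LPS and 1.17 (1.11 to 1.23) with it, which are narrow counting intervals above 1 between single libraries. Zfp821, at 3.92, 6.31, 2.57 and 6.29 FPKM, had the lowest log2 ratio without LPS, -0.46, with a plain ratio of 0.656 (0.474 to 0.903). With LPS its ratio was 0.997 (0.754 to 1.31). Zfp580, with the highest log2 ratio without LPS, 0.52, was at 1.86, 1.05, 3.11 and 0.970 FPKM, and its plain ratio was 1.67, with an interval of 0.881 to 3.07 that included 1. It met the minimum in that knockout library alone, so its high value there was fixed by the choice of members. The stromal and endothelial markers were lower in knockout in the same libraries, with values given above, and their part in these ratios was not tested.

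The LPS response of 6 members differed by at least 1.5-fold between genotypes (3.69% of all genes, so 6 of 194 is near the background) and that of 0 by 2-fold (0.921%). Zfp692, Zfp105, Zfp524, Zfp41 and Zfp324 had the lower log2 ratio in knockout, by 0.82, 0.78, 0.75, 0.68 and 0.59, and Zfp811 the higher, by 0.68. Zfp692 was at 4.93, 3.32, 6.07 and 1.92 FPKM. Zfp524 was at 7.63, 7.46, 9.22 and 4.97, and Zfp41 at 1.46, 0.653, 2.09 and 0.299. In Zfp692 and Zfp524 the knockout was above control without LPS and below it with LPS. Zfp41 had the same order, but it is a member only through the unstimulated knockout. Zfp105 is a member only through the LPS-treated control, and Zfp324 only through these same libraries. A high value in either library lowers the response of knockout relative to control. The choice of members thus favoured that direction for Zfp41, Zfp105 and Zfp324. Zfp800 came next among the higher, by 0.55. Since 1 library stands for each group, and the knockout library with LPS was the shallowest at 51.6% of the deepest, these differences have no replicate check.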

How the data were processed

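Values are FPKM as deposited by the authors, 1 table per library. Per the labels' protocols, libraries were stranded and made from mRNA after RNeasy purification. Cuffnorm 2.2.1, SAMtools 0.1.19, Bowtie2 2.2.3 and TopHat2 2.0.13 were named with build mm10, per the submitters' processing notes, without roles. The gene models behind the values are not given in these sources. From the deposited FPKM, log2 ratios of (FPKM + 1) between single libraries were computed (Python 3.11.15, numpy 2.4.6, pandas 2.3.3, scipy 1.17.1, matplotlib 3.10.9), with a minimum of 2 FPKM in 1 library. Calls were at 2-fold and 1.5-fold. No test was run, since each group has 1 library. The members, gene lists and naming rules were chosen with earlier results of these data known. Named were the members with the highest means, the most extreme ratios per comparison, role-list genes with the largest ratios, and members of genome groups.

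Relative depth was read from the ratios of FPKM values under 0.3 in each library to those in the unstimulated control. Of 2419 low genes, 1916 (79.2%) lay on a common step (tolerance 0.02, divisors up to 6). A line of step against transcript length over 227 single-transcript genes then set the fragments per FPKM and the bases deducted. Fragments were estimated as FPKM times depth times median coding-transcript length (GENCODE vM21) less 218 bases, with exact (Clopper-Pearson) 95% counting intervals for ratios. C2H2 fingers (C, 2 to 4 residues, C, 12, H, 3 to 5, H) and the KRAB A box were searched in translated GENCODE coding models, in place of the protein table planned. All 194 members matched the annotation, 9 by an older symbol. Simulated data tested the relative depth and the 2-fold calls, with changes set only in genes of 10 FPKM or more. The length fit, fragment numbers and counting intervals were not tested in that way. Alternatives tried were other pseudocounts, minimums, scalings and thresholds.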

Additional observations from a re-analysis of the deposited data

How the results depend on the processing

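Upper-quartile scaling turned the sign of the members' genotype medians and of the LPS medians of all genes, and turned the 2-fold LPS balance toward lower members (7 higher and 10 lower in control, 8 and 14 in knockout). The balance of all genes turned the same way (9.09% higher and 9.67% lower in control, 9.73% and 11.2% in knockout). The members' median stayed below that of all genes in the 4 comparisons under each pseudocount, minimum, scaling and background tried, but lay above it with LPS within bands of level. With a pseudocount of 0.1 FPKM, 17 members were 2-fold lower with LPS in control, 17 higher and 20 lower in knockout, 1 higher and 1 lower at 1.5-fold between genotypes without LPS, and with LPS 4 were 2-fold lower, 5 1.5-fold higher and 7 1.5-fold lower. With a pseudocount of 5 FPKM, 3 and 0 were 2-fold higher and lower with LPS in control, 4 and 0 in knockout, and 0 and 0 passed 1.5-fold between genotypes with LPS. No share of all genes at either pseudocount is given beside these counts. With a minimum of 5 FPKM (105 members), 3 were 2-fold lower with LPS in control and 5 in knockout, 0 were 1.5-fold lower in knockout with LPS, and the knockout median minus that of all genes was -0.011 in place of -0.16. With the minimum of 2 FPKM on the mean (173 members), 1 was 1.5-fold lower in knockout with LPS. With upper-quartile scaling, 10 and 14 were 2-fold lower with LPS in control and knockout, and 0 were 1.5-fold higher in knockout with LPS. At a 3-fold threshold, 3 were higher and 2 lower in control and 3 higher and 1 lower in knockout. Of 512 ratios of named members, 16 moved beyond their counting interval with median-ratio scaling, 50 with upper-quartile scaling, 87 with a pseudocount of 5 and 0 with 0.1. No paired analysis was possible because each group has 1 library and the labels give no replicate numbers. With 1 library per group, spread between cultures is unknown, and under 5 FPKM the shallow libraries with LPS hold few fragments.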
